A study of Mus musculus with 2 samples.

Results

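Amino acid transport and the ATF4 response were followed through 10 genes in mouse urothelial organoids: the transporter genes Slc7a11, Slc3a2, Slc7a5, Slc1a5 and Slc43a2, the transcription factor gene Atf4, and the ATF4 targets Asns, Ddit3, Trib3 and Chac1. The genes were picked by symbol from the 31053 genes in the tables, and all 10 were found in both libraries. They were chosen from measured values, namely their levels in the 2 libraries and in cells of the proliferative library with Fmo2 or Agr2 transcripts, so the levels in those comparisons are given as a description. Organoids were grown from bladder urothelial digests, without sorting for EpCAM, of wild-type C57BL/6 mice aged 8 to 10 weeks, and the material can hold cells of several animals. Proliferative organoids (P) were kept in complete medium. Differentiated organoids (D) were first grown in complete medium and then moved to a medium that left out EGF, RSPO1 and WNT3A as well as Noggin and the TGF-β receptor inhibitor LY2157299. Both media contained GlutaMAX, a glutamine source, and N-acetylcysteine, a cysteine source. In complete medium WNT3A and RSPO1 were supplied as conditioned medium of cells, a large part of the volume, which the medium of D lacked. The media thus differed in more than the named factors, and their amino acid levels are not given in the sources used here. Each group was 1 droplet library of single cells, so there was no replicate spread, no test was made, and intervals are exact 95% intervals that cover counting error only.

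Cells that run short of amino acids, or whose endoplasmic reticulum is overloaded with unfolded protein, phosphorylate the translation factor eIF2α. General translation then slows while translation of the Atf4 transcript rises, so ATF4 activity is set largely after transcription. ATF4 binds, usually with a C/EBP partner, to response elements of genes for amino acid import, amino acid synthesis and, in prolonged stress, cell death. Slc7a11 encodes xCT, which imports cystine in exchange for glutamate and feeds glutathione synthesis, and it is also a target of the antioxidant factor NRF2. The urothelium is the stratified lining of the bladder, in which basal cells give rise to intermediate cells and to superficial cells that make uroplakins.

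The promoters were searched for the core letters of the C/EBP-ATF response element, TGATGNAA, or TTNCATCA on the other strand, because this element is the known route by which ATF4 reaches its targets. Windows ran from 250 bases before to 50 bases after the transcription start in RefSeq (GRCm38.p6) and were found for 8 of the 10 genes, Slc1a5 and Slc7a5 having no entry. Since Asns, Ddit3, Trib3 and Chac1 were listed as ATF4 targets to begin with, nothing is read from the share of genes that match. The letters were present in 4 of the 8 genes with windows, Slc7a11, Asns, Chac1 and Trib3. By windows they were present in 4 of the 9 of these genes and in 1304 of all 32851 (3.97%). The stretches that hold them are printed 5′ to 3′ on the strand of the gene, with the matching letters in capitals.
Slc7a11, chr3:50443620-50443719, minus strand: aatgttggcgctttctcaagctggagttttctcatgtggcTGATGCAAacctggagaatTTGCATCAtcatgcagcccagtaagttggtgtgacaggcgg
Asns, chr6:7693210-7693309, minus strand: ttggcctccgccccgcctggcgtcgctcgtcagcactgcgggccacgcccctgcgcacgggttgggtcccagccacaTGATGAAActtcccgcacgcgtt
Chac1, chr2:119351009-119351108, plus strand: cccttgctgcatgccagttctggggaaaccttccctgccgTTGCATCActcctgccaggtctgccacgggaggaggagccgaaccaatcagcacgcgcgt
Trib3, chr2:152344028-152344057, minus strand: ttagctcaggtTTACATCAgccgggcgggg
Slc7a11 held 2 copies in opposite orientation, 66 and 47 bases upstream of the start. The copy in Asns lay 23 bases upstream, that in Chac1 193 bases upstream and that in Trib3 15 bases downstream of the RefSeq start. For Asns, Chac1 and Trib3 the RefSeq start differs from the limit of the gene in GENCODE. By the GENCODE limits the Asns copy lies within the gene and the Trib3 copy upstream of it. The core of the antioxidant response element, TGACNNNGC or GCNNNGTCA on the other strand, was present in 12.4% of all windows and, among these 8 genes, in Asns alone, 172 bases upstream. A match is a description of the sequence and no evidence of binding.

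Cells with more than 800 detected genes and at most 12% of UMIs (unique molecular identifiers, which count RNA molecules) from mitochondrial genes were kept. This left 6818 of 8194 barcodes in P and 4896 of 6975 in D, with medians of 3405.5 and 3227.5 UMIs per cell, and 6 of the kept barcode sequences occurred in both libraries. The epithelial markers Epcam, Cdh1, Krt5, Krt8, Krt18 and Cldn4 were all detected in both libraries. Of 6 fibroblast markers 3 were detected in P (53 UMIs in all) and 5 in D (1270 UMIs, 1234 of them Dcn), with Col1a2 at 0 in both. Of 6 leukocyte markers 4 were detected in P (25 UMIs) and 3 in D (410 UMIs, 400 of them Laptm5), with Coro1a and Cd3e at 0. UMIs of endothelial markers numbered 138 (P) and 67 (D), none of them from Cdh5, Kdr or Emcn, and hemoglobin genes gave 0. The part of such cells in the results below was not tested. The share of UMIs from ribosomal protein genes was 37.4% in P and 21.4% in D. All 12 proliferation genes examined were at least 2-fold lower in D (median −3.43) and all 5 uroplakin genes at least 2-fold higher (median 5.80). Over the 10719 genes with enough UMIs, the median log2 ratio of D over P was 0.41, and 13.5% of these genes were at least 2-fold higher and 4.73% at least 2-fold lower in D.

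Between the libraries, Slc7a11 was the only one of the 8 genes with enough UMIs that differed 2-fold, and it was higher in proliferative organoids. Slc7a11 (ENSMUSG00000027737, chromosome 3, 49892526 to 50443614 in GRCm38, minus strand) had 799 UMIs in P, or 29.9 CPM (27.9 to 32.1), and 278 in D, or 13.7 CPM (12.1 to 15.4), where CPM stands for UMIs per 1000000 UMIs of the group. The log2 ratio of D over P was −1.13 (−1.33 to −0.93). Slc3a2 (chromosome 19, 8706882 to 8723369), the heavy chain that carries xCT and LAT1 to the cell surface, did not share this difference. Its level was 75.9 CPM (72.6 to 79.3) in P and 72.2 CPM (68.5 to 76.0) in D, a log2 ratio of −0.07 (−0.17 to 0.03). The heavy chain transcript was thus at a similar level in both libraries on this scale while that of its cystine-importing light chain was not, and relative to the common shift described next the ratios were −0.49 for Slc3a2 and −1.55 for Slc7a11. Predicted gene models (Gm symbols) overlap Slc7a11 on both strands, and Slc43a2 and Slc7a5 on the opposite strand. Mir3971 overlaps Slc43a2 on the same strand. The sources used here do not say whether strand was used in counting.

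Slc1a5 (chromosome 7, 16781340 to 16798274) encodes ASCT2, an exchanger of glutamine and other neutral amino acids, and had a level in P of 23.6 CPM (21.8 to 25.5), compared with 38.2 CPM in D (35.6 to 41.0). Slc43a2 (chromosome 11, 75531694 to 75577575), which encodes the neutral amino acid transporter LAT4, had 31.9 CPM (29.8 to 34.2) in P against 55.4 CPM (52.2 to 58.7) in D. The log2 ratios of 0.70 (0.54 to 0.85) and 0.79 (0.67 to 0.93) lay above 0 beyond counting error and under 2-fold. Relative to the shift of 0.42 shared by genes with 100 or more UMIs per library, they were 0.28 and 0.37. Slc7a5 (chromosome 8, 121881150 to 121907694), the light chain of the leucine transporter LAT1, was sparse, with 51 UMIs in each library and a log2 ratio of 0.39 (−0.19 to 0.98). The 4 transporters other than Slc7a11 ran from near equal to moderately higher in D.

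**Figure D1:**
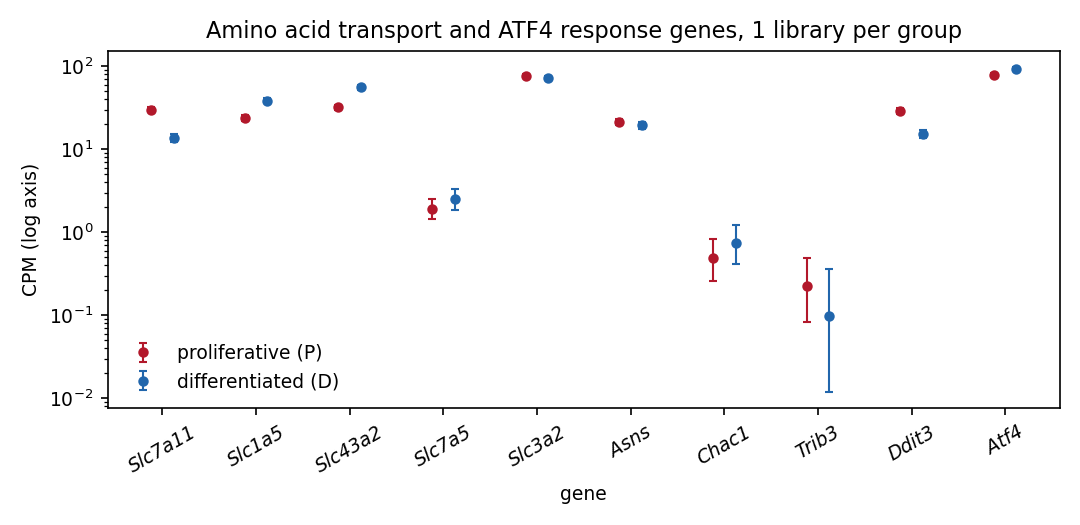
Levels in CPM on a log axis for the 10 genes in proliferative (red) and differentiated (blue) organoids, 1 library each, with exact 95% Poisson intervals as bars. The red point lies above the blue by more than the intervals for Slc7a11 and Ddit3, and below it for Slc1a5, Slc43a2 and Atf4, the last of which turned to −0.18 (log2) once the common shift was removed.

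Atf4 itself (ENSMUSG00000042406, chromosome 15, 80255184 to 80257541) had 2105 UMIs in P, or 78.9 CPM (75.6 to 82.3), and 1894 in D, or 93.3 CPM (89.1 to 97.6). Its log2 ratio of 0.24 (0.15 to 0.33) was below the common shift and became −0.18 (−0.27 to −0.09) once the shift was removed, so its direction depended on the scaling. Asns (chromosome 6, 7675169 to 7693254), which makes asparagine from aspartate and glutamine, had 21.4 CPM (19.6 to 23.2) in P against 19.5 CPM (17.6 to 21.5) in D, with a ratio of −0.14 (−0.32 to 0.05), or −0.56 with the shift removed.

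Ddit3 (ENSMUSG00000025408, chromosome 10, 127290774 to 127296288) encodes CHOP, a transcription factor of prolonged stress. It had 769 UMIs in P, or 28.8 CPM (26.8 to 30.9), and 313 in D, or 15.4 CPM (13.8 to 17.2), and the log2 ratio of −0.90 (−1.10 to −0.71) fell just short of 2-fold. With the shift removed it was −1.32 (−1.52 to −1.13), and without mitochondrial and ribosomal protein genes −1.24, both past 2-fold. Among cells with 4 to 8% mitochondrial UMIs it was −0.48 (−0.71 to −0.26). Slc7a11 stayed past 2-fold in the same 3 settings, at −1.55, −1.46 and −1.36. The Ddit3 locus overlaps Mars and a predicted gene model on the opposite strand, and another entry named Ddit3 on the same strand. Whether counting used strand was not given in the sources used here.

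Trib3 (chromosome 2, 152337422 to 152344032), which encodes a pseudokinase that restrains ATF4, and Chac1 (chromosome 2, 119351229 to 119354381), which encodes an enzyme that degrades glutathione, were near the limit of detection. P and D held 6 and 2 Trib3 UMIs, and 13 and 15 Chac1 UMIs, the latter at 0.487 CPM (0.259 to 0.833) and 0.739 CPM (0.413 to 1.22). A difference of either gene between the libraries was not detectable at this depth. Over the 8 genes with enough UMIs, 0 were 2-fold higher in D, 1 was 2-fold lower, and the median log2 ratio was 0.08, beside 13.5%, 4.73% and a median of 0.41 over all genes.

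Within proliferative organoids, the 595 cells with at least 1 UMI of Fmo2 (a flavin monooxygenase) or Agr2 (a disulfide isomerase of secretory epithelia) were set beside the other 6223 cells. Slc7a11 had 178 UMIs in these cells, or 58.9 CPM (50.5 to 68.2), and 621 in the others, or 26.2 CPM (24.2 to 28.4), a log2 ratio of 1.17 (0.92 to 1.41). It was the only one of the 7 genes with enough UMIs that was 2-fold higher, and 0 were 2-fold lower; of the 8140 genes compared, 0.246% were higher and 1.51% lower by this measure. The choice of genes used this contrast, so nothing is read from that count.

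The other transporters were nearer to equality in the Fmo2 or Agr2 cells of P, at log2 ratios of 0.56 (0.24 to 0.88) for Slc1a5, 0.32 (0.02 to 0.60) for Slc43a2 and 0.01 (−0.19 to 0.21) for Slc3a2. The genes of the ATF4 arm lay on the other side of 0, with Atf4 at −0.27 (−0.48 to −0.06), Asns at −0.32 (−0.75 to 0.09) and Ddit3 at −0.59 (−1.0 to −0.21). Ddit3 stood there at 19.8 CPM (15.1 to 25.5) against 29.97 (27.8 to 32.3) in the other cells.

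The 595 cells differed from the rest in other ways. They were deeper, with a median of 3962 against 3361 UMIs. Of 8 basal genes 2 were 2-fold lower in them, Krt14 (−1.67) and Itgb4 (−1.53), and so were 8 of 11 proliferation genes, with a median of −1.10. The 11 dissociation response genes with enough UMIs, which are immediate early genes induced when tissue is taken apart, had a median of 0.29 and 0 past 2-fold. Among cells below the median share of dissociation response genes the Slc7a11 ratio was 0.85 (0.35 to 1.32), under 2-fold. Among cells with 4 to 8% mitochondrial UMIs it was 1.04 (0.76 to 1.32), above the median depth 1.04 (0.74 to 1.33), without cycling cells 1.19, and above and below the median basal share 1.22 (0.86 to 1.57) and 1.19 (0.83 to 1.53).

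Differentiated organoids gave a look at the same split in a library that had not been used for it when the genes were chosen. Fmo2 stood at 161 CPM in D against 16.6 in P, and Agr2 at 13.2 against 19.6, so the split need not mark like cells. In D, 1850 cells had Fmo2 or Agr2 UMIs (median 3787 UMIs) and 3046 had none (median 3011.5). Slc7a11 stood at 18.2 CPM (15.7 to 21.1) against 9.48 (7.71 to 11.5), a log2 ratio of 0.94 (0.58 to 1.31), just under 2-fold. Slc1a5 at 0.52 (0.31 to 0.73) and Slc43a2 at 0.46 (0.29 to 0.63) had the same direction as in P. Slc3a2 was lower in these cells of D, at −0.42 (−0.57 to −0.26), while Ddit3 at 0.07 (−0.26 to 0.40) and Atf4 at 0.04 (−0.09 to 0.17) were within counting error. None of the 7 genes with enough UMIs passed 2-fold in D, against 0.202% of 9398 genes higher and 2.07% lower. The difference between the libraries in these ratios was not tested.

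**Figure D2:**
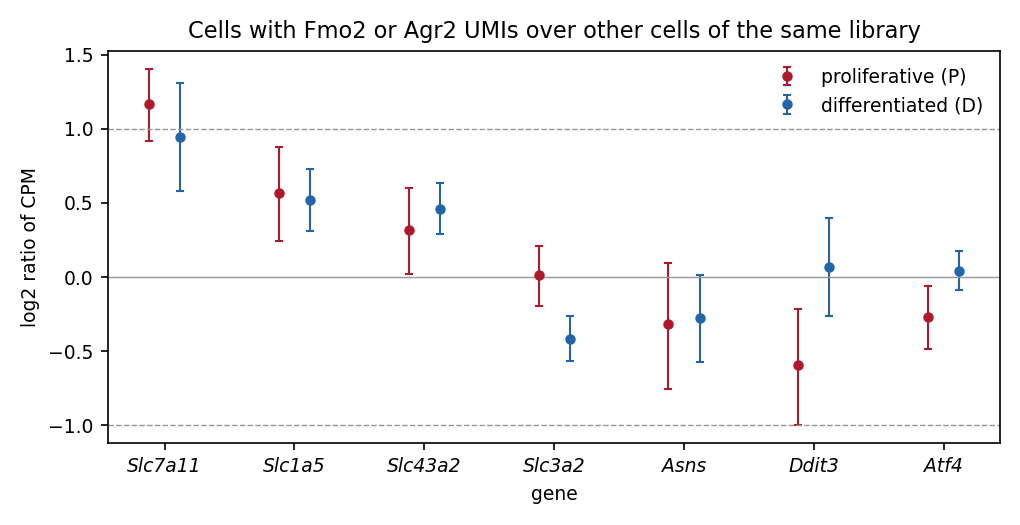
Log2 ratio of CPM in cells with Fmo2 or Agr2 UMIs over the other cells of the same library for the 7 genes with enough UMIs, in P (red) and D (blue), with exact conditional 95% intervals and dashed lines at 2-fold. Slc7a11 lies at 1.17 in P and 0.94 in D, and Ddit3 at −0.59 in P and 0.07 in D.

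Cells were then divided by which of both transcripts they held. In P, Slc7a11 had 26.2 CPM in cells with neither, 49.8 (38.1 to 64.0) in 263 cells with Fmo2 alone, 58.3 (46.6 to 72.1) in 277 with Agr2 alone and 93.8 (64.2 to 132) in 55 with both. In D the levels were 9.48 with neither, 16.1 (13.5 to 19.1) in 1633 cells with Fmo2 alone, 14.1 (5.67 to 29.1) in 94 with Agr2 alone and 40.9 (28.7 to 56.6) in 123 with both. Cells with both transcripts had the highest values, with intervals that overlapped those of Agr2 alone in each library. They were also the deepest, with medians of 4931 UMIs in P and 5283 in D, and the level with both in P rested on 32 Slc7a11 UMIs. The intervals of Fmo2 alone and Agr2 alone overlapped in each library.

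**Figure D3:**
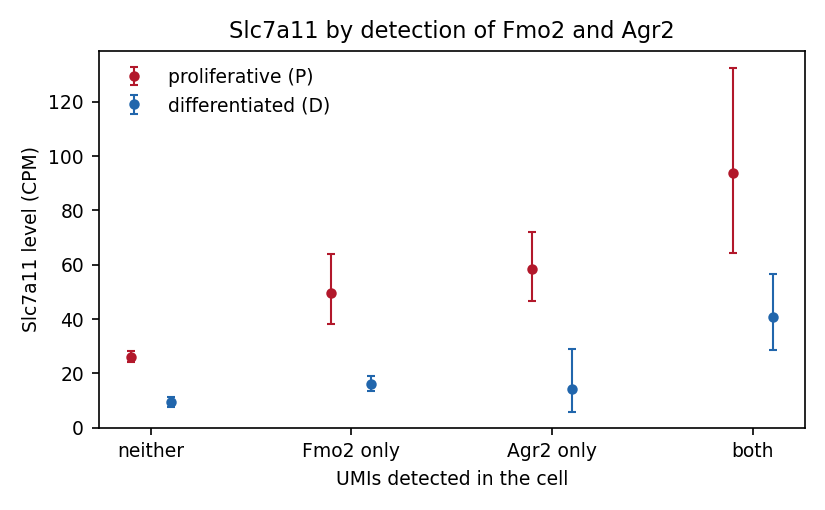
Slc7a11 level in CPM (vertical axis, from 0) in cells with UMIs of neither gene, Fmo2 only, Agr2 only or both, in P (red) and D (blue), with exact 95% Poisson intervals. Levels run from 26.2 to 93.8 in P and from 9.48 to 40.9 in D, and each class lies higher in P than in D.

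Detection of the late ATF4 targets was used to ask whether the other genes stood higher in the same cells. In P, 687 cells had a UMI of Ddit3, Chac1 or Trib3, 674 of them of Ddit3, and in D 313 cells, 296 of them with Ddit3. Atf4 stood at 89.9 CPM (79.5 to 101.4) in these cells of P and 77.5 (74.0 to 81.1) in the others, a log2 ratio of 0.21 (0.02 to 0.40). Asns had a ratio of 0.21 (−0.17 to 0.57) and Slc3a2 of 0.13 (−0.07 to 0.32), while Slc7a11 was lower at −0.38 (−0.76 to −0.03). In D, Atf4 had 0.11 (−0.12 to 0.34), Asns 0.01 (−0.55 to 0.52) and Slc7a11 −0.01 (−0.69 to 0.61). None of the other genes passed 2-fold in either library, where 0.185% of genes were higher and 0.321% lower in P, and 0.0138% and 0.069% in D. The split rests on few UMIs, with 769 Ddit3 UMIs in 674 cells of P and 313 in 296 cells of D. Many cells that express Ddit3 can therefore lie among the others. In D the 1 gene called higher was Ddit3 itself. In D the split could thus hardly show a 2-fold higher level, while in P 15 of 8103 genes were called higher and 26 lower. Since cells that express Ddit3 can lie on both sides of the split, nothing is concluded from the absence of 2-fold differences in the import and synthesis genes. The cells with a UMI of Ddit3, Chac1 or Trib3 had medians of 3610 UMIs in P and 3998 in D, against 3383 and 3182 in the others.

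Cells were then placed along the basal axis. Cells were ranked by the share of UMIs from 8 basal genes (Krt5, Krt14, Krt15, Trp63, Itga6, Itgb4, Cd44 and Col17a1), and the 4 resulting bins held 25% of the cells each. The bins are ranges of a share and not cell types, the most basal bin was set beside the least basal one, and 933 cells of P lay within 10% of the upper limit. In P, Slc43a2 had 42.6 CPM in the most basal bin (37.6 to 48.1) and 18.9 in the least basal bin (15.8 to 22.5), a log2 ratio of 1.17 (0.86 to 1.49). Asns had 29.6 (25.5 to 34.2) and 14.5 (11.8 to 17.7), a ratio of 1.03 (0.67 to 1.40), which was 0.99 without cycling cells. Ddit3 went the other way, with 18.2 (15.0 to 21.9) in the most and 47.7 (42.6 to 53.1) in the least basal bin and a ratio of −1.39 (−1.71 to −1.07). Of the 7 genes with enough UMIs, 2 were thus 2-fold higher and 1 was 2-fold lower, beside 7.87% and 4.84% of 7646 genes.

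Over the 4 bins of P from lowest to highest basal share, Ddit3 stood at 47.7, 27.1, 21.1 and 18.2 CPM, and Asns at 14.5, 19.7, 22.5 and 29.6. Both are targets of ATF4, and they ran in order in opposite directions. Slc7a11 stood at 19.4, 33.8, 36.7 and 29.9 and Slc1a5 at 16.4, 24.99, 28.3 and 24.7, each lowest in bin 1, with the intervals of bins 2, 3 and 4 overlapping. Slc3a2 ran from 65.0 to 84.5. Atf4 was level, between 75.1 and 82.8, and its ratio of 0.05 (−0.13 to 0.23) was within counting error.

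In D the same ranking gave 0 of the 6 genes with enough UMIs past 2-fold in either direction, beside 3.23% of 7641 genes higher and 3.98% lower. Slc7a11 fell below the minimum for a call, with 49 UMIs in the most and 47 in the least basal bin. Its ratio was 0.56 (−0.05 to 1.17), and it stood at 8.37, 15.9, 18.3 and 12.3 CPM from the lowest to the highest bin, again lowest in bin 1. Ddit3 ran from 14.5 to 17.4 CPM over the 4 bins, with a ratio of 0.25 (−0.23 to 0.73), and Slc43a2 had 0.10 (−0.17 to 0.37). The high Ddit3 level of the least basal bin of P was not seen in any bin of D, where none lay above 17.4 CPM. Bins were set within each library, with lower and upper limits at shares of 0.522% and 1.08% in P and 1.16% and 2.13% in D. The bins thus covered different ranges of the share, and cells of D with a share as low as in that bin of P were not examined apart. Slc3a2 was higher in the most basal cells of D, with 90.6 (81.5 to 100.5) against 58.6 (52.4 to 65.2) and a ratio of 0.63 (0.41 to 0.85). Slc1a5 had 27.4 (22.5 to 33.1) in the most and 40.4 (35.3 to 46.0) in the least basal bin, a ratio of −0.56 (−0.90 to −0.22), compared with 0.59 (0.23 to 0.96) in P. The most and least basal bins differed in depth, with medians in P of 3245 and 3560 UMIs, and in D of 2810 and 3565.

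**Figure D4:**
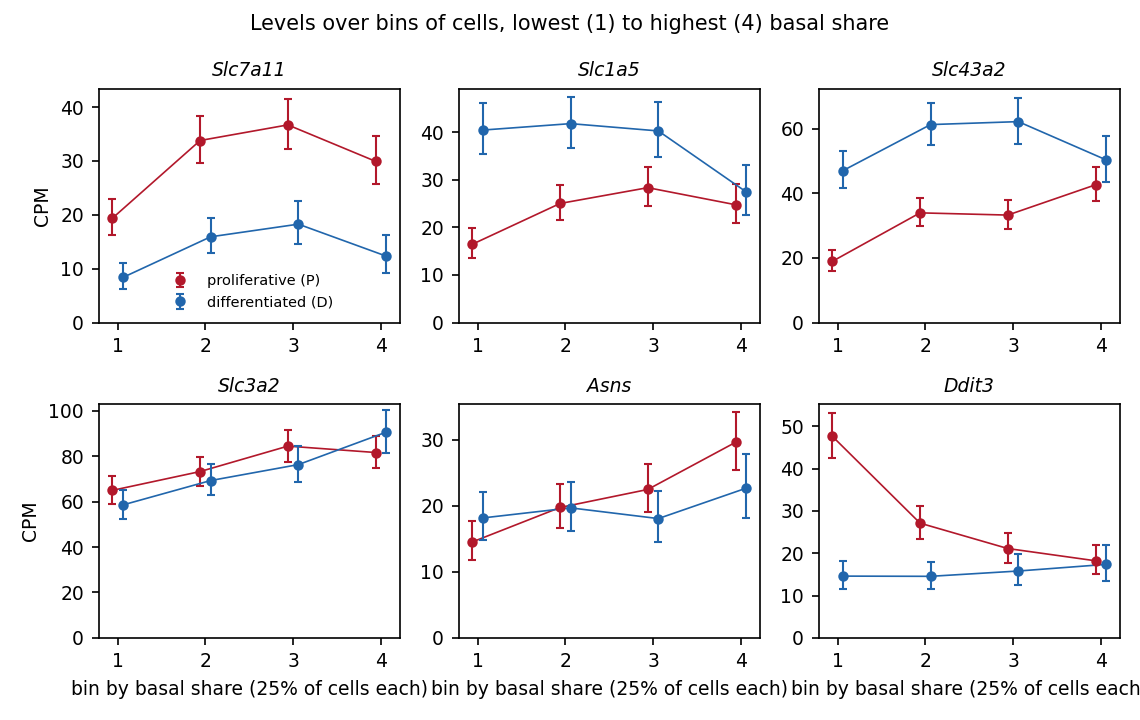
CPM of 6 genes over bins of 25% of cells each ordered by basal share, from 1 (lowest) to 4 (highest), in P (red) and D (blue). Bin limits were set within each library. Bars are exact 95% Poisson intervals and the vertical axes start at 0. Ddit3 goes from 47.7 to 18.2 and Asns from 14.5 to 29.6 in P, whereas Slc1a5 goes from 40.4 to 27.4 in D.

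Cycling and uroplakin cells were compared next, as states that had not served to choose the genes. In P, 410 cells with at least 2 of 12 proliferation genes detected (median 4039 UMIs) were set beside 6408 others (3374 UMIs). Asns stood at 29.2 CPM in cycling cells (22.1 to 37.9) and 20.8 in the others (19.0 to 22.6), a ratio of 0.49 (0.07 to 0.89). Ddit3 stood at 16.2 (10.99 to 23.0) against 29.8 (27.7 to 32.0), a ratio of −0.88 (−1.45 to −0.36). Slc7a11 at −0.24 (−0.69 to 0.17), Slc1a5 at −0.19 (−0.69 to 0.27) and Atf4 at 0.02 (−0.23 to 0.26) were within counting error. Slc7a5 had 10 UMIs in cycling cells and 41 in the others, or 5.22 CPM (2.50 to 9.60) and 1.66 CPM (1.19 to 2.25), below the UMI minimum for a call. Of the 7 genes with enough UMIs 0 passed 2-fold, beside 4.28% of genes higher and 3.04% lower.

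In D, 2849 cells with a uroplakin UMI (median 3714 UMIs) were set beside 2047 without one (2696 UMIs). Slc3a2 stood at 62.0 CPM (58.0 to 66.2) against 95.4 (87.9 to 103), a ratio of −0.62 (−0.77 to −0.47). Slc1a5 stood at 41.8 (38.5 to 45.3) against 30.03 (25.9 to 34.7), a ratio of 0.48 (0.24 to 0.72). These differences were opposite in direction and under 2-fold, and the uroplakin cells were deeper. Ddit3 had −0.50 (−0.84 to −0.16), Asns −0.40 (−0.70 to −0.10), Slc7a11 0.27 (−0.12 to 0.68) and Slc43a2 0.04 (−0.15 to 0.23). Again 0 of 7 genes passed 2-fold, beside 3.73% of genes higher and 3.27% lower.

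In P, levels of Slc7a11, Slc1a5, Slc43a2, Asns and Ddit3 also varied with the mitochondrial share of the barcode, on which the filter rests. These levels are per 1000000 non-mitochondrial UMIs over all barcodes with more than 800 genes. In P, Slc7a11 stood at 7.26 (4.82 to 10.5) in 1140 barcodes with up to 4% mitochondrial UMIs, 35.3 (32.7 to 38.2) in 4908 with 4 to 8%, 42.0 (35.1 to 50.0) in 770 with 8 to 12% and 68.4 (41.2 to 107) in the 94 above 12%. Slc1a5 and Slc43a2 rose over the same bins of P. Slc1a5 stood at 10.6, 27.4, 29.2 and 43.2, the last on 12 UMIs. Slc43a2 stood at 12.4, 37.4, 40.7 and 61.2, the last on 17 UMIs. Ddit3 was highest where Slc7a11 was lowest, with 59.3 (51.9 to 67.6) up to 4% and 25.3 (23.1 to 27.8) from 4 to 8%. Asns declined over the same bins, from 31.4 (26.0 to 37.5) to 10.8 on 3 UMIs. In D, Slc7a11 lay between 9.37 and 17.5 in all 4 bins, of which 2 were sparse. The bin up to 4% held 106 barcodes and 3 Slc7a11 UMIs, at 10.7 (2.21 to 31.3), and the bin over 12% held 8 UMIs. Up to 4%, the Slc7a11 level of P, 7.26, was not above that of D, with overlapping intervals. In the range from 4 to 8%, which held 4908 barcodes of P and 3704 of D, Slc7a11 was still more than 2-fold higher in P, while the Ddit3 ratio was −0.48. The part of the mitochondrial share in the other comparisons was not tested beyond these values.

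**Figure D5:**
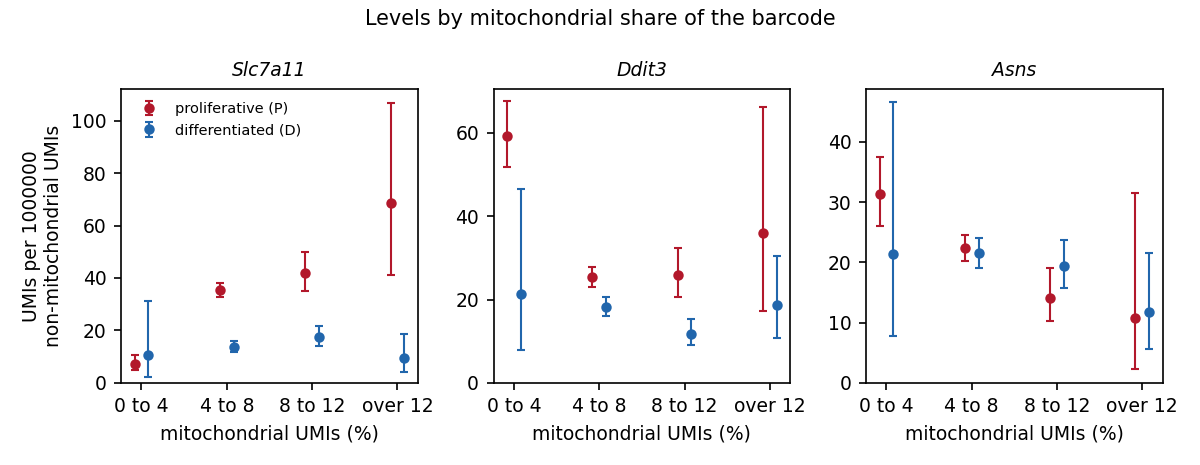
UMIs per 1000000 non-mitochondrial UMIs of Slc7a11, Ddit3 and Asns in barcodes with 0 to 4, 4 to 8, 8 to 12 and over 12% mitochondrial UMIs, in P (red) and D (blue), with exact 95% Poisson intervals; the vertical axes start at 0. In P Slc7a11 goes from 7.26 to 68.4 over the bins while Ddit3 is highest, at 59.3, in the lowest bin.

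Barcodes outside the filter were set beside the kept cells on the same scale. In P, the 1376 barcodes left out held 46.2 Slc7a11 UMIs per 1000000 (37.2 to 56.6) against 31.8 in kept cells, and 42.7 Ddit3 UMIs (34.1 to 52.8) against 30.6. The log2 ratios of left-out over kept barcodes in P were also above 0 for Slc1a5 (0.82), Slc3a2 (0.51), Slc43a2 (0.35) and Atf4 (0.32). Asns in P was near equal, at −0.04. In D, the 2079 barcodes left out held 116 Slc43a2 UMIs per 1000000 (102 to 131) against 59.7, and 11.1 Asns UMIs (7.04 to 16.7) against 20.9. Slc3a2 (0.67), Slc1a5 (0.64) and Atf4 (0.56) were higher in them too, while the intervals of Slc7a11 and Ddit3 included 0.

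Each gene was found in a small share of cells. After every cell was thinned to 2100 UMIs, leaving out 180 shallower cells of P and 479 of D, Slc7a11 was detected in 372 of 6638 cells of P (5.60%, 5.06 to 6.18%) and 122 of 4417 cells of D (2.76%, 2.30 to 3.29%); without thinning the shares were 9.20% and 4.70%. Ddit3 was detected in 6.06% (5.49 to 6.66%) and 3.60% (3.07 to 4.19%), and unthinned in 9.89% and 6.05%. Atf4 was detected in 14.8% (14.0 to 15.7%) and 17.1% (16.0 to 18.2%), and unthinned in 25.5% and 29.9%. No population that should lack these transcripts was separated in either library, so the share that free RNA gives is not known. Slc7a11 was the most unevenly spread of the genes in P, with a variance of 1.29 times the mean over thinned cells, followed by Ddit3 at 1.17 and Slc43a2 at 1.10. The other genes with enough UMIs lay between 0.99 and 1.07, near the value of 1 that random counting gives. Single cells of P held up to 9 Ddit3 and 6 Slc7a11 UMIs, compared with 2 and 5 in D.

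The genes were also compared in pairs, by the level of one in cells with and without a UMI of another. Of 42 pairs with enough UMIs in P and 44 in D, 0 passed 2-fold, and the log2 ratios ran from −0.76 to 0.63 and from −0.34 to 0.63. Slc7a11 and Slc43a2 gave the highest ratio in P, since cells with a Slc43a2 UMI held 43.3 CPM of Slc7a11 and those without held 27.9, a ratio of 0.63 (0.37 to 0.89). Slc7a11 and Ddit3 gave the lowest, as cells with a Slc7a11 UMI held 17.8 CPM of Ddit3 and those without 30.2, a ratio of −0.76 (−1.19 to −0.36). In D, Slc7a11 went with Slc1a5, at 0.63 (0.23 to 1.01) in cells with a Slc1a5 UMI.

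Other genes of these pathways were taken from fixed lists and counted in D over P and in the Fmo2 or Agr2 cells of P. Of 15 further ATF4 response genes, 13 had enough UMIs, of which 3 were 2-fold higher and 3 were 2-fold lower in D, beside 13.5% and 4.73% of all genes, with a median of 0.00. Higher were Atf3, a stress and immediate early factor (2.26), Nupr1, a small stress-induced chromatin protein (1.87), and Sesn2, a sensor of leucine upstream of mTORC1 (1.12). Lower were Vldlr, a lipoprotein receptor (−2.55), Stc2, a secreted glycoprotein (−1.63), and Eif4ebp1, an inhibitor of cap-dependent translation (−1.06). Nupr1 was abundant, at 3355 CPM in D and 921 in P. The ATF4 response genes thus went both ways between the libraries. In the Fmo2 or Agr2 cells of P, 11 had enough UMIs and Stc2 alone passed 2-fold, higher at 1.24 (0.75 to 1.71), beside 0.246% of genes higher and 1.51% lower.

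Of 21 other amino acid transporters, 10 had enough UMIs and 2 were 2-fold higher in D, the light chain Slc7a6 (1.17, 0.86 to 1.47) and the proton-coupled Slc36a4 (1.01, 0.63 to 1.40), with a median of 0.23, beside 13.5% of all genes higher and 4.73% lower. In the Fmo2 or Agr2 cells of P the cationic amino acid transporter Slc7a1 was lower, at 12.2 CPM against 26.4 (−1.11, −1.63 to −0.63), so that it moved opposite to Slc7a11 there; 5 of the list had enough UMIs. Of 12 genes of serine, glycine, proline and one-carbon synthesis, 10 had enough UMIs in D over P, with a median of −0.54, and Psat1, the second enzyme of serine synthesis, was lower in D at 10.1 against 34.3 CPM (−1.76). Phgdh, the first enzyme of serine synthesis, was lower in the Fmo2 or Agr2 cells of P (−1.32, −1.85 to −0.83) and of D (−1.12, −1.49 to −0.75). In P, the most basal bin held more Phgdh (2.73), Psat1 (1.74) and Slc7a1 (2.15) than the least basal one, the direction of Asns.

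Of the 20 cytosolic aminoacyl-tRNA synthetases, which load tRNAs and include ATF4 targets, 20 had enough UMIs, Wars was 2-fold higher in D (1.31) and the median was 0.44, close to that of all genes. Of the 6 genes for eIF2α kinases, eIF2α and its phosphatase, which sit upstream of ATF4, 6 had enough UMIs, 0 passed 2-fold and the median was 0.49. Of 15 chaperones and other genes of the unfolded protein response, 15 had enough UMIs, Sdf2l1 was higher in D (1.28) and the median was 0.43. In the Fmo2 or Agr2 cells of P, 0 of the 20, 5 and 15 genes of these lists with enough UMIs passed 2-fold, and the medians were −0.06, 0.12 and 0.22. Of all genes, 13.5% were 2-fold higher and 4.73% lower in D, and 0.246% and 1.51% in the Fmo2 or Agr2 cells of P.

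Slc7a11 is shared with the NRF2 program. Of 13 NRF2 targets with enough UMIs, 4 were 2-fold higher in D, led by Me1 (1.41), Taldo1 (1.19) and Txnrd1 (1.10), and 0 were 2-fold lower, beside 13.5% and 4.73% of all genes, and their median of 0.45 was near the 0.41 of all genes. Under 2-fold, Nqo1 (−0.94), Hmox1 (−0.58), Osgin1 (−0.37) and Gsr (−0.26) lay below 0. In the Fmo2 or Agr2 cells of P, 0 of the 13 passed 2-fold and the median was 0.05, including Nqo1 at 0.15 (−0.25 to 0.52) and Gclc at 0.48 (0.19 to 0.75). Of 8 genes of glutathione turnover, 6 had enough UMIs, and Ggt6, a gamma-glutamyl transferase (−2.05), and Gpx2, an epithelial glutathione peroxidase (−1.24), were lower in D, with a median of −0.04; in the Fmo2 or Agr2 cells of P, 0 of 5 passed 2-fold and the median was 0.06. Of 17 genes of amino acid sensing by mTORC1, 16 had enough UMIs, with Sesn3 (1.93) and Castor2 (1.70) higher and Castor1 (−1.61) lower in D and a median of 0.40; in the Fmo2 or Agr2 cells of P, 0 of 13 passed 2-fold and the median was −0.11. Dissociation response genes had a median of 1.24 in D over P, with 6 of 11 2-fold higher, among them Atf3, Egr1 (1.64) and Btg2 (1.61). Among cells below the median share of these genes in each library, the D over P ratio was −1.51 (−1.84 to −1.18) for Slc7a11 and −1.09 (−1.36 to −0.82) for Ddit3.

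The genes most like Slc7a11, Asns and Chac1 were ranked over 8 groups of cells, namely the cycling, Fmo2 or Agr2, uroplakin and other cells of each library, by the correlation of log2 levels among 7228 genes. Slc7a11 stood at 60.1 CPM in the Fmo2 or Agr2 cells of P and between 17.9 and 27.0 in its other groups, and at 18.3, 17.3, 11.8 and 6.29 in the Fmo2 or Agr2, cycling, uroplakin and other cells of D. The log2 levels of Slc7a11 over the groups correlated most with those of Kank1 (r = 0.94), Six4 (0.92) and Eef2kmt (0.91). Asns was closest to Tmem243 (0.99), Senp7 (0.98) and Mrpl32 (0.97). Chac1, with 28 UMIs in all, was closest to Acads (0.94), Mettl3 (0.93) and Comtd1 (0.93), a ranking that its depth does not support. The 8 groups share their library and medium, and the 17 cycling cells of D held 2 Slc7a11 UMIs, so these correlations are descriptions.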

How the data were processed

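Single-cell RNA of 1 proliferative and 1 differentiated organoid culture was sequenced after droplet capture (10x Genomics 3′ chemistry). Per the labels and the study's methods, the authors used bcl2fastq 2.19.0 and Cell Ranger 3.0.2 with the mouse build GRCm38 (mm10). The deposited values are counts of UMIs per gene and barcode, not normalized. The annotation release and the use of strand were not given in the sources used here. Cells with more than 800 genes and at most 12% mitochondrial UMIs were kept, UMIs were summed over cells of a group, and levels are CPM (UMIs per 1000000). Levels have exact Poisson, ratios exact conditional binomial and shares exact Clopper-Pearson 95% intervals. With 1 library per group no test was possible. A gene was compared where it had at least 100 UMIs over both groups and at least 20 expected in the smaller one, and was called at 2-fold. Scrublet marked 0 cells in both libraries and had not worked as a doublet caller, so doublets were not removed.

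The 10 genes, lists and comparisons were chosen with earlier results of these data known. Besides the 10 genes, the text names listed genes at least 2-fold different in D over P or in the Fmo2 or Agr2 cells of P, at most the 3 largest per list and direction, and for each of 3 genes the 3 most alike over 8 cell groups with at least 500 UMIs, by Pearson correlation of log2(CPM + 10). Nqo1, Gclc, Hmox1, Osgin1 and Gsr were named after their values were seen. Listed symbols Mars1, Castor1 and Castor2 are Mars, Gatsl3 and Gatsl2 in the files. Coordinates are from GENCODE M21 on GRCm38, promoters from RefSeq. Python 3.11.15, numpy 2.4.6, scipy 1.17.1, pandas 2.3.3 and scanpy 1.11.5 were used. The interval calculation was tested on simulated data. Alternatives changed the cell filter, the scaling, the thinning, the cells compared and the UMI minimum.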

Additional observations from a re-analysis of the deposited data

Results flagged for a closer look

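Slc1a5 differed between the libraries in its direction from the least to the most basal bin, but the bins were set within each library. Their lower and upper limits lay at shares of 0.522% and 1.08% in P and 1.16% and 2.13% in D, so the ratios cover different ranges. The log2 ratio of the most basal over the least basal 25% of cells was 0.59 (0.23 to 0.96) in proliferative and −0.56 (−0.90 to −0.22) in differentiated organoids, and both intervals excluded 0 while pointing opposite ways. Each value came from 1 library, and the difference between them was not tested. Among cells with 4 to 8% mitochondrial UMIs the ratios were 0.73 (0.30 to 1.16) and −0.28 (−0.68 to 0.13), so that the interval in D then included 0.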

How the results depend on the processing

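In D over P, Slc7a11 was lower in D in 12 of 12 alternatives, at −1.55 to −1.09. The number of genes 2-fold higher in P was 2 in place of 1 without mitochondrial and ribosomal protein genes, with scaling by the median ratio, and among cells below the median dissociation share, Ddit3 being the added gene. The direction of Atf4 changed in 2 of 12 alternatives (lowest −0.18) and that of Slc7a5 in 3 (lowest −0.47). In the Fmo2 or Agr2 cells of P, Slc7a11 was higher in 17 of 17 alternatives, at 0.85 to 1.44, and the count of genes 2-fold higher was 0 among cells below the median dissociation share. In the most basal bin of P the count of genes 2-fold higher was 1, Slc43a2, without cycling cells. The cause of these changes was not tested. The alternatives above and below the median basal share, without the 6% of cells with the highest Scrublet scores, within 4 to 8% mitochondrial UMIs, and all those of the basal bins were chosen after seeing the data. The alternative without predicted doublets gave no value, since none were predicted. No paired analysis was possible because each group held 1 library. Depth limits Trib3, Chac1 and Slc7a5.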
